A study of Mus musculus with 24 samples.

Results

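The cortex of tamoxifen-induced mice carrying the R47H form of TREM2 was compared with that of tamoxifen-induced mice carrying the WT form, 6 mice against 6, over all genes. The libraries were chosen by 2 labels, the treatment (Induced) and the genotype (TREM2-R47H+/+ or TREM2-WT+/+), which gave 12 of the 24 libraries of the series. All mice were of the C57BL/6 background and carried Cx3cr1CreER/+, a Cre recombinase active only in the presence of tamoxifen and driven by the promoter of Cx3cr1, a fractalkine receptor of microglia and related macrophages. The remaining 12 mice, 6 of each genotype, had the same alleles and received corn oil instead of tamoxifen, and are called control mice. Neither the ages of the mice nor the origin of the TREM2 constructs is given in the sources used here, and a group that received tamoxifen without Cre was not analysed here. Each genotype is a separate line, so a difference made by the R47H change and a difference between the lines elsewhere in the genome cannot be told apart by the induced mice alone.

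TREM2 is a lipid-sensing receptor on microglia, the resident macrophages of the brain. It signals through the adaptor TYROBP, and R47H, a change in its ligand-binding domain, is associated with a higher risk of Alzheimer's disease. Activated microglia can respond to and produce interferons, which switch on antiviral genes, guanylate-binding proteins and the machinery that presents peptides on MHC molecules.

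RNA was sequenced from whole cortex. Total counts ran from 33759496 to 46904559 in the 6 WT libraries and from 27933505 to 56082520 in the 6 R47H libraries. Levels are given as CPM, counts scaled to a common library size by TMM, a scale that does not correct for gene length, so levels of different genes are not compared. Of 43346 genes 19678 were tested. A gene was called when its edgeR quasi-likelihood p, adjusted by Benjamini-Hochberg over all tested genes, was below 0.05. Fold changes are log2 values of R47H minus WT with their standard error (SE). In bulk tissue, fewer cells of a type and less RNA per cell cannot be told apart. All 8 neuron identity genes, such as Snap25, Rbfox3 and Slc17a7, were expressed, with a summed level of 6950 to 7751 CPM, as the cortex label states.

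The library WT_induced replicate 6 differed from the other 11 in immune genes. Of 21 markers of blood leukocytes 18 had their highest level there. Ccr2, a chemokine receptor of blood monocytes, was at 8.64 CPM in it, against 0.18 to 0.52 in the other WT libraries and 0.18 to 0.78 in the R47H libraries. Cd3e, a T-cell receptor subunit, was at 1.34 CPM against at most 0.082, and Nkg7, a gene of cytotoxic lymphocytes, at 1.73 against at most 0.12. The 16 leukocyte markers too low to be tested summed to 17.5 CPM in this library, to 0.53 to 1.28 in the other 5 WT libraries and to 0.46 to 0.78 in the R47H libraries. Many of the gene lists and named genes that this library moves are given with and without it where they are described. Others are given with it only. Sex is not labelled per mouse; in each induced group 3 libraries (WT replicates 1, 4 and 6, and R47H replicates 2, 3 and 4) had Xist above the Y-linked genes and 3 the reverse, and some results below are given within these classes.

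Mouse Trem2 itself did not separate the groups. Its level was 5.41, 5.81, 6.85, 6.53, 5.74 and 9.32 CPM in WT replicates 1 to 6, and 6.01, 6.65, 6.39, 7.61, 6.55 and 6.48 CPM in R47H replicates 1 to 6. All R47H values lay inside the WT range, whose top was WT_induced replicate 6. The means were 6.61 ± 1.43 and 6.62 ± 0.53 CPM (SD, n = 6 each), and a two-sided exact permutation test gave p = 0.991. The log2 difference was 0.00 (SE 0.10) with all libraries and 0.13 without WT_induced replicate 6 (edgeR adjusted p = 0.996 and 0.423). Because the construct's origin is not known here, its reads may or may not be counted as mouse Trem2, and these levels do not check the genotype labels.

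Across all genes 1142 of 19678 (5.8%) were called, 509 higher (2.59%) and 633 lower (3.22%) in R47H mice. With libraries scaled by their totals alone the split was 507 higher and 288 lower. Most differences were small. The median absolute log2 change of the called genes was 0.26, 834 of them were below 0.5 and 146 above 1. The 6 R47H and 6 WT libraries did not overlap for 639 genes (3.25% of those tested; 1.46% with R47H higher and 1.79% with R47H lower), and 515 of them were called.

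Most of these differences had the same direction in mice that had not been induced. In control mice, which share no library with the induced comparison, 1129 genes (5.74%) were called between the same genotypes, 530 higher (2.69%) and 599 lower (3.04%) in R47H mice. Of the 1142 genes called in induced mice, 1062 (93.0%) had the same sign in control mice and 484 (42.4%) were also called there, all 484 with the same sign; they are 42.9% of the control calls. Among genes not called in induced mice 62.5% had the same sign and 3.48% were called in control mice. The control difference was, in the median, 0.689 of the induced difference. Because the genes were picked by their induced difference, this ratio is partly set by that choice. The direct test of whether the genotype difference itself differed between induced and control mice called 0 genes in edgeR, 0 in limma-voom and 3 in DESeq2. In edgeR the smallest adjusted p was 0.303, and 1562 genes had an unadjusted p below 0.05. By edgeR, no gene is therefore shown to have a genotype difference that depends on induction.

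**Figure D1:**
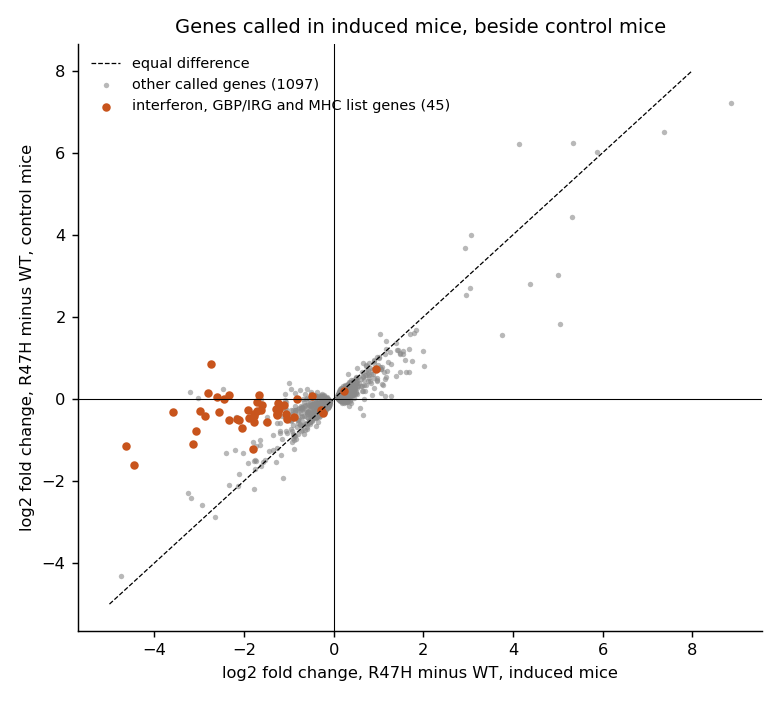
Log2 fold change of R47H minus WT in induced mice (x axis) and in control mice (y axis) for the 1142 genes called in induced mice; each point is 1 gene, and the dashed line marks equal differences. The 1097 other called genes mostly have the same sign on both axes, while the 45 called genes of the interferon, GBP, IRG and MHC lists lie mostly on the left near a control difference of 0. Over all 1142 called genes the control difference was in the median 0.689 of the induced one.

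The genes with the strongest statistical separation had differences of similar size in control mice. Hmga1, which encodes a chromatin-binding protein, was at 5.41, 6.50, 5.82, 6.19, 6.47 and 6.998 CPM in the WT libraries and at 12.5, 9.84, 13.7, 12.7, 13.6 and 12.8 CPM in the R47H libraries. Every R47H library was above every WT library, and the log2 change was 1.004 (SE 0.08, adjusted p = 2.13e-08). In control mice it was 0.999. Nudt3, a phosphohydrolase gene next to Hmga1 on chromosome 17, was lower, at 225 to 241 CPM in WT and 178 to 196 CPM in R47H libraries (log2 -0.33, SE 0.03, adjusted p = 7.43e-08).

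Other genes with the lowest p also separated the groups without overlap. Adar, which encodes an RNA-editing enzyme that limits the sensing of self RNA, was at 199 to 217 CPM in WT and 156 to 185 CPM in R47H libraries (log2 -0.29, SE 0.03), with -0.27 in control mice. Scg5, a chaperone of prohormone convertase, was higher by 0.31, and Lamp5, a membrane protein of cortical neurons, lower by a log2 value of -0.33. Mut, the mitochondrial methylmalonyl-CoA mutase, was at 45.8 to 51.5 CPM in WT and 34.0 to 41.7 CPM in R47H libraries. Bex2 was lower (log2 -0.29), while Pkmyt1, a kinase that inhibits entry into mitosis, and Ankrd45 were higher (0.78 and 0.36). The lowest p of all belonged to RP23-474A1.1, an unprocessed pseudogene of chromosome 1, at 0.023 to 0.049 CPM in WT and 3.18 to 8.25 CPM in R47H libraries. The gene model Gm16432 on the same chromosome was at 2.70 to 3.55 CPM in WT and 7.45 to 12.5 CPM in R47H libraries. An unprocessed pseudogene can share reads with its parent gene, so the level of RP23-474A1.1 is uncertain. All 12 of the genes with the lowest p were called, with the same sign, in control mice.

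Several of the largest rises fell into discrete levels among the R47H mice. Pla2g4e, a cytosolic phospholipase, was at 7.72 to 8.96 CPM in WT libraries, at 29.8 to 32.3 CPM in R47H replicates 1, 2, 3 and 6, and at 10.6 and 11.7 CPM in R47H replicates 4 and 5. Hddc3, a phosphohydrolase gene, was at 7.27 to 7.90 CPM in WT libraries, at 7.37 in R47H replicate 2, 14.96 in replicate 3 and 23.5 to 25.5 CPM in the other 4; 76.3% of its exon bases are overlapped by other genes, so part of its reads cannot be assigned. Wdfy1, an endosomal adaptor, was at 12.7 to 14.7 CPM in WT libraries and 29.6 to 33.2 CPM in 5 R47H libraries, but at 14.3 CPM in R47H replicate 2. Its call (log2 1.05, SE 0.29, adjusted p = 0.0332) was lost without WT_induced replicate 6 (0.061). It was also lost without WT replicate 1, 2, 3 or 4, or R47H replicate 1, 3, 4, 5 or 6. Prss41, a serine protease, went the other way, at 2.60 to 2.94 CPM in WT and 0.047 to 0.22 CPM in 5 R47H libraries, with R47H replicate 2 at 1.53. Such steps within the R47H group show that its 6 mice were not alike at these genes.

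**Figure D2:**
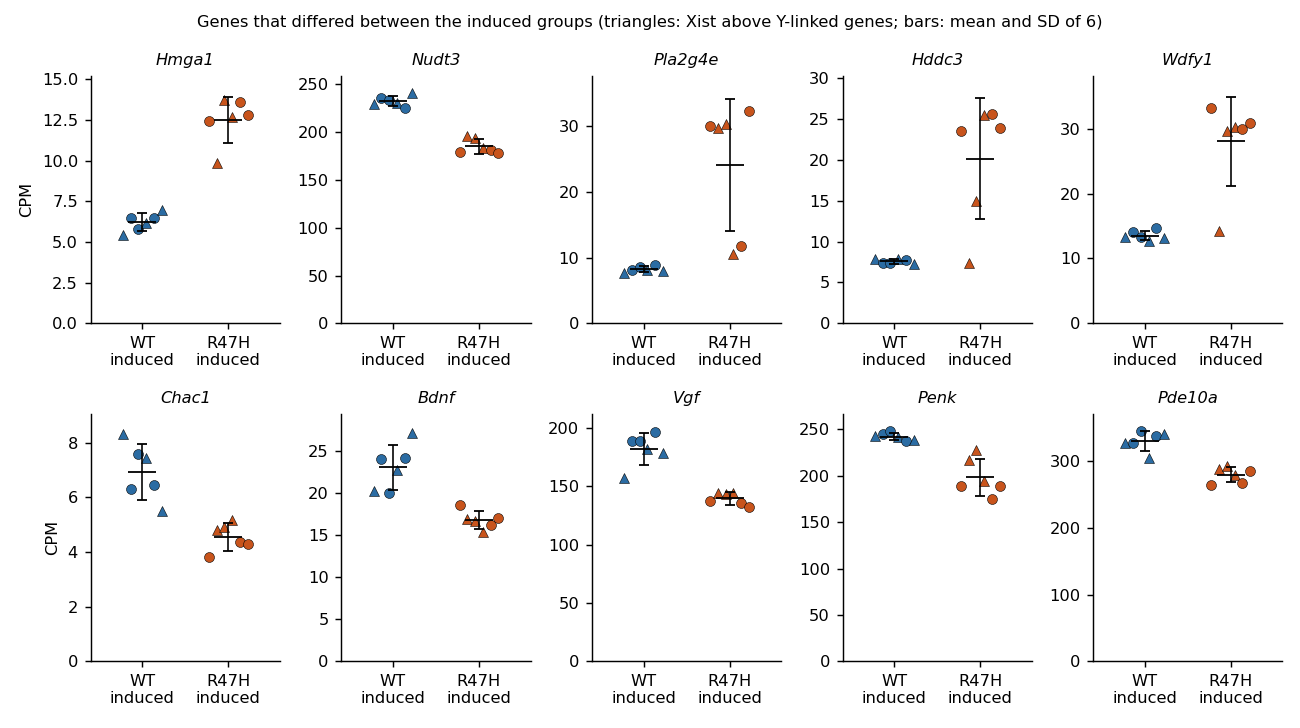
CPM of 10 called genes in each of the 12 induced libraries; bars give the mean and SD of 6, triangles are libraries with Xist above the Y-linked genes. Hmga1 and Nudt3 form 2 tight groups, Pla2g4e, Hddc3 and Wdfy1 have R47H libraries at or near the WT level, and the stress, neurotrophin and striatal genes of the lower row shift by a smaller step.

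Of the other large rises, Sytl1, a synaptotagmin-like protein of vesicle transport, was at 0.67 to 2.07 CPM in WT and 2.09 to 4.66 CPM in R47H libraries (log2 1.67, SE 0.24). Col6a5, a collagen chain, was at 0.56 to 1.22 and 2.12 to 3.41 CPM (log2 1.61, SE 0.33). The values of Gpr115, Tagap1 and Mamdc2 did not overlap between the groups (log2 1.38, 1.21 and 1.04), and Slc5a5, the iodide transporter, was at 3.69 to 5.08 CPM in WT and 4.84 to 15.1 CPM in R47H libraries (log2 1.14).

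The called genes were concentrated on chromosome 17, where Trem2 lies (48346401 to 48354147, mm10). There 157 of 935 tested genes (16.8%) were called, 76 higher and 81 lower, against 5.26% of the 18743 tested genes elsewhere. The next highest shares were 8.07% on chromosome 1 and 7.9% on chromosome 7, and the lowest autosomal share was 2.13% on chromosome 14. In windows of 10 Mb with at least 20 tested genes the share was 36% between 0 and 10 Mb of chromosome 17 (18 of 50), 23.9% between 40 and 50 Mb, around Trem2 (26 of 109), and 20.2% between 20 and 30 Mb (47 of 233), the window of Hmga1, Nudt3, Pkmyt1 and Prss41. Outside chromosome 17 it reached 24.6% between 50 and 60 Mb of chromosome 6 (15 of 61) and 23.8% between 170 and 180 Mb of chromosome 1 (29 of 122), the window of RP23-474A1.1 and Gm16432. Of 252 windows 11 had more than 15% called and 27 had none. In the window around Trem2, 18 of the 26 calls were also called in control mice. Whether sequence differences between the lines near these positions set the levels was not tested.

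**Figure D3:**
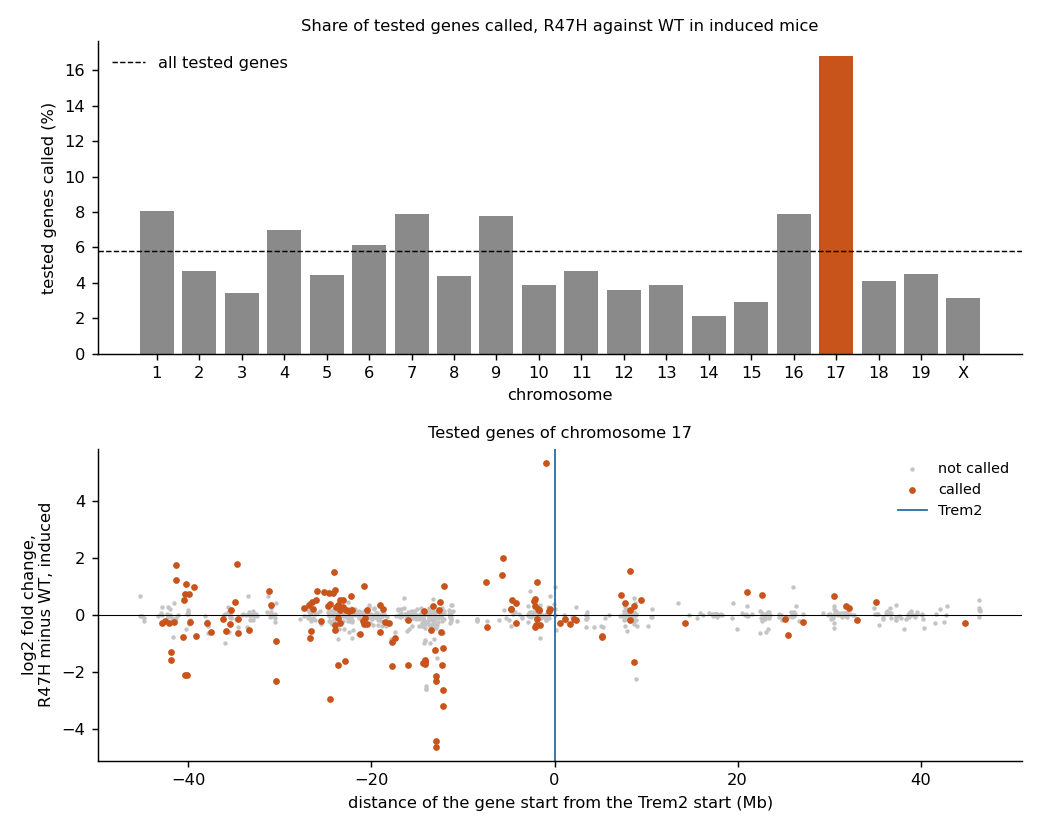
Upper panel, percent of tested genes called on each chromosome, with the share over all genes dashed. Lower panel, log2 fold change of each tested gene of chromosome 17 against the distance of its start from that of Trem2 in Mb. Chromosome 17 stands at 16.8% against 5.8% over all tested genes, and its called genes lie on both sides of Trem2.

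The largest falls with named function were in interferon-induced genes, and they rested on a few WT mice. Of 60 tested interferon response genes 19 were lower and 2 higher, with a median log2 change of -0.55 against 0.00 over all tested genes. Guanylate-binding proteins (GBP) and immunity-related GTPases (IRG), which attack the vacuoles of intracellular microbes, had 12 of 17 members lower and none higher, with a median of -2.15. Without WT_induced replicate 6 the counts were 14 lower and 2 higher interferon genes (median -0.26) and 9 lower GTPases (median -1.25). In that fit 2.59% of all genes were lower and 4.86% were called in either direction. In control mice 3 interferon genes were lower and 2 higher (median -0.09), and 0 of 17 GTPases were called in edgeR (median -0.17). Of the 45 called genes of the interferon, GBP, IRG and MHC lists 39 had the same sign in control mice but only 4 were called there, and the control difference was in the median 0.219 of the induced one. For 27 of the 45 the difference between induced and control mice had an unadjusted edgeR p below 0.05. The same held for 228 of all 1142 called genes and 1562 of 19678 tested genes. For none did it pass after adjustment. The 45 were picked by their induced difference, which is part of this test. The count and the ratio therefore do not show that induction changed the difference.

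Irf7, the transcription factor that amplifies type I interferon production, was at 3.43, 0.95, 2.45, 2.80, 0.74 and 12.4 CPM in WT replicates 1 to 6 and at 1.53, 0.89, 0.87, 0.88, 0.80 and 0.73 CPM in the R47H libraries. WT replicates 1, 3, 4 and 6 were above every R47H library and replicates 2 and 5 lay among them. The log2 change was -2.03 (SE 0.50, adjusted p = 0.0184), and -1.14 without WT_induced replicate 6 (0.0368). Gbp4, one of the guanylate-binding proteins, was at 15.6, 1.72, 1.37, 3.42, 0.85 and 17.1 CPM in WT and 0.48 to 1.35 CPM in R47H libraries (log2 -2.87, SE 0.62, adjusted p = 0.00745). Its log2 change was -2.32 without WT_induced replicate 6. Iigp1, an IRG, followed the same mice, at 10.2, 1.49, 1.39, 3.73, 0.90 and 30.6 CPM in WT and 0.87 to 1.23 CPM in R47H libraries (log2 -2.99, and -1.78 without WT_induced replicate 6). In each of these genes WT replicates 1, 4 and 6 were the highest 3 libraries and WT replicate 5 lay within the R47H range. Among effectors of the response, named after their values were seen, Isg15, a ubiquitin-like modifier, was lower by a log2 value of -1.27 (SE 0.36) and Ifit1, which binds viral RNA, by -1.48 (SE 0.36). Without WT_induced replicate 6 the edgeR adjusted p of Isg15 was 0.0863 and that of Ifit1 0.0403. The genes for type I interferon itself, Ifna4 and Ifnb1, had no count in any induced library.

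The promoters of these genes were read from RefSeq (GRCm38.p6, 250 bases before to 50 after the start). The core of the interferon-stimulated response element, the site bound by interferon-activated factors, was searched on both strands as GAAA, any 2 bases and GAAA again. It was in 13 of 31 promoters matched among the 43 list members that were lower (41.9%), in 17 of 55 matched promoters of the members that were not lower (30.9%), and in 3.57% of the 12540 promoters of tested genes. The promoters of Isg15 (chr4:156200769-156201068, minus strand), Ifit1 (chr19:34640639-34640938, plus strand) and Gbp2 (chr3:142620413-142620712, plus strand) are shown because each holds at least 1 match, in capitals, written 5' to 3' along the gene; overlapping matches run together.
Isg15: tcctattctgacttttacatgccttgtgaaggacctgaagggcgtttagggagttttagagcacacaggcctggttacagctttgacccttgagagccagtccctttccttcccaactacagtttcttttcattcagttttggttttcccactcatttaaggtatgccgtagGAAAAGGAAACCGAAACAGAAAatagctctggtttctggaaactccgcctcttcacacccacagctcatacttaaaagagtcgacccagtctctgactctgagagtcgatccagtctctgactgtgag
Ifit1: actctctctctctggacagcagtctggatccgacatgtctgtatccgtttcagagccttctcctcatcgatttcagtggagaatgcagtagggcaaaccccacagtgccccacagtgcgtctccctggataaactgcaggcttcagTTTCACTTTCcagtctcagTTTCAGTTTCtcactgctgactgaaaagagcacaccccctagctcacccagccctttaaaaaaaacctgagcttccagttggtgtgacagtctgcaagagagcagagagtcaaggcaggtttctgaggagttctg
Gbp2: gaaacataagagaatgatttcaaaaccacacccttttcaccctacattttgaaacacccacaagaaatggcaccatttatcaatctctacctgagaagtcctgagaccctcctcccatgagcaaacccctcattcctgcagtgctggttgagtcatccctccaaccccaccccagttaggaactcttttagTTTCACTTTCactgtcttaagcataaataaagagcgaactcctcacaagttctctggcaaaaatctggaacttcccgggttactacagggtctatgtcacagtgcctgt
A match is a description of these letters and not evidence of binding.

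Antigen presentation moved with the same mice. Of 22 tested genes of MHC class I presentation 10 were lower and none higher (median -0.37). H2-K1, a class I heavy chain, was at 38.6, 17.8, 21.0, 39.3, 15.3 and 163 CPM in WT replicates 1 to 6 and at 13.96 to 17.9 CPM in R47H libraries (log2 -1.71, SE 0.43, adjusted p = 0.0204; -0.80 without WT_induced replicate 6). B2m, the light chain shared by class I molecules, was at 80.8, 49.5, 54.8, 77.8, 40.1 and 263 CPM in WT and 36.6 to 45.8 CPM in R47H libraries (log2 -1.23, SE 0.33; -0.59 without that library). Nlrc5, the transactivator of class I genes, was lower by a log2 value of -2.57, which became -1.36 without it. The immunoproteasome subunit Psmb8 was at -1.68 and, without it, at -0.65, where the call did not hold (adjusted p = 0.0552). H2-Q6 and H2-Q7 had log2 values of -4.45 and -4.63, and of -2.92 and -3.01 without WT_induced replicate 6. They are near-identical copies, and part of their reads may be assigned to each other. Without WT_induced replicate 6, 6 class I genes were lower and 1 higher (median -0.14). H2-K1, H2-Q6 and H2-Q7 lie between 30 and 40 Mb of chromosome 17, the chromosome of Trem2. In that window 27 of 229 tested genes (11.8%) were called, 5 higher and 22 lower. Whether a difference between the lines at this position sets their levels was not tested.

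Of 15 class II genes 2 were lower in R47H mice, Cd74 and Ifi30. Cd74, the invariant chain of class II molecules, was at 152 CPM in WT_induced replicate 6 and at 2.13 to 9.90 CPM in the other WT and 3.17 to 5.82 CPM in the R47H libraries, so its log2 change went from -2.74 (adjusted p = 0.0428) to -0.37 (0.514) without that library. Neither class II call held without it. The calls on Gbp2 and Gbp6 were lost in the same way (0.0798 and 0.304), and 81.6% of the exon bases of Gbp6 are overlapped by other gene models.

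**Figure D4:**
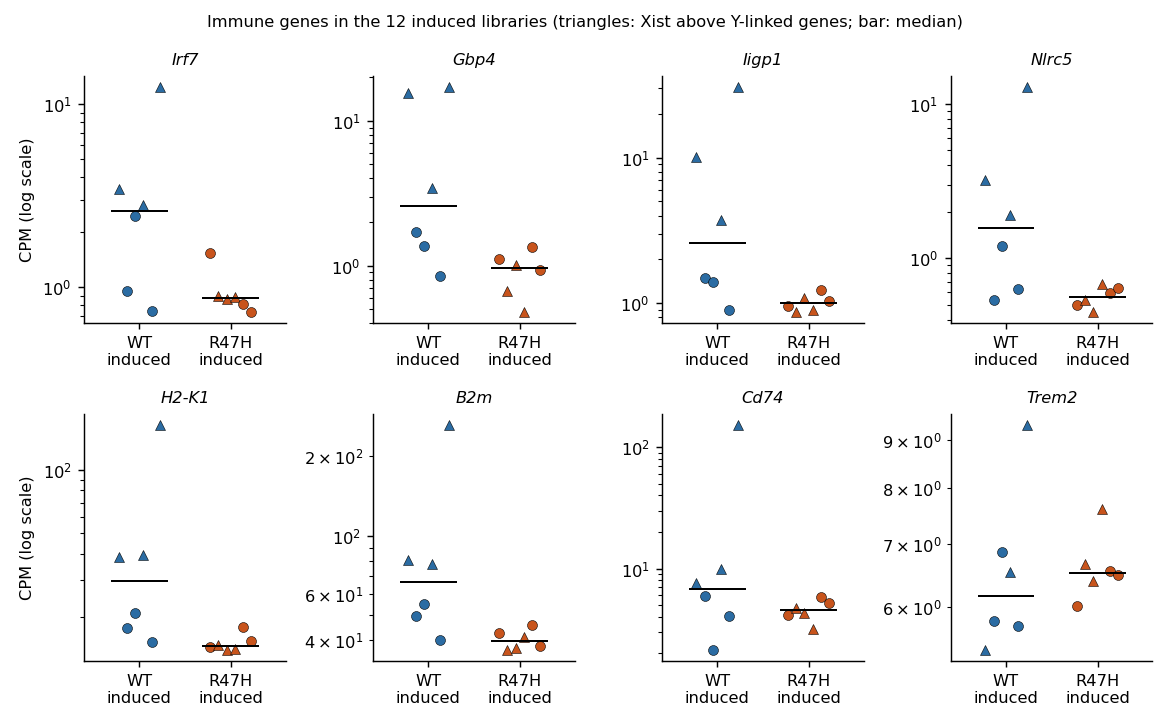
CPM on a log axis for 7 interferon and MHC genes and Trem2 in the 12 induced libraries; each point is 1 mouse, the bar is the median of 6, and triangles mark libraries with Xist above the Y-linked genes. WT replicate 6 is the top point in every panel; in the 7 immune genes the other 2 WT triangles come next.

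The 3 high WT libraries were those with Xist above the Y-linked genes. The summed level of the GBP and IRG list was 142.8, 67.4 and 328.5 CPM in WT replicates 1, 4 and 6, and 34.9, 38.8 and 29.5 CPM in WT replicates 2, 3 and 5, while all R47H libraries were between 26.9 and 34.3 CPM. In a fit with a mean for each group and Xist class, chosen after seeing the data, 41 of 60 interferon genes, 15 of 17 GTPases and 14 of 22 class I genes were lower in R47H mice within the Xist class, 3 against 3 (medians -0.97, -3.07 and -0.94). Within the class with Y-linked genes above Xist the counts were 1, 0 and 0 (medians -0.03, -0.18 and 0.04), and 2 interferon genes were higher. All 3 high WT libraries, WT_induced replicate 6 among them, fall in the Xist class and none in the other. The split therefore largely set these counts, and they do not show an effect of the class. The classes were not fitted without WT_induced replicate 6. Of all 19678 tested genes 559 were lower in the first class and 465 in the second. Iigp1 was at -3.97 (SE 0.57) in the first class and at -0.23 (SE 0.64) in the second. The test of the difference between the classes called 0 of 19678 genes in edgeR, so the classes are not shown to differ; the smallest adjusted p was 0.0509, and 2880 genes were below 0.05 before adjustment. Genes that resemble rRNA (3 in the table) took a share of the counts that is a sign of library quality. This share was 19.77%, 20.27% and 22.95% in the same 3 WT libraries and 14.74% to 16.002% in the other 3. In R47H libraries it ran from 14.99% to 19.53%. R47H replicates 1 and 4 were at 18.40% and 19.53%, with GBP and IRG sums of 33.6 and 28.5 CPM. The part of this share in the immune result, and that of the leukocyte markers, was not tested beyond 1 fit: with this share as a covariate 8 interferon genes, 5 GTPases and 3 class I genes were lower. The leukocyte markers too low to be tested summed to 1.28 and 1.14 CPM in WT replicates 1 and 4, the highest sums after the 17.5 CPM of replicate 6, against 0.53, 0.83 and 0.68 CPM in WT replicates 2, 3 and 5.

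These immune counts depended on the model. DESeq2 called 30 interferon genes, 15 GTPases and 10 class I genes lower, while limma-voom, and edgeR on the 12 induced libraries alone, each called 3, 0 and 0. They also depended on single libraries. The lower interferon genes numbered 31 and 29 without WT replicate 2 or 5, and 8 and 10 without R47H replicate 3 or 4. The lower class I genes numbered 5 without R47H replicate 2, 3, 4 or 6, and 6 without R47H replicate 1 or 5 or WT replicate 6. The lower GTPases numbered 9 to 15 over the 12 libraries left out in turn.

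Microglial genes outside these pathways gave few calls. Over all tested genes 5.8% were called, so few calls in lists of this size do not set microglial genes apart. Of 23 homeostatic microglial genes 1 was lower, Slco2b1, an organic anion transporter, at 13.3 to 19.7 CPM in WT and 11.97 to 13.2 CPM in R47H libraries (log2 -0.32, SE 0.07, adjusted p = 0.00696; 0.07 in control mice). P2ry12, Tmem119, Cx3cr1 and Csf1r, which mark resting microglia or sustain them, had log2 values of 0.05, -0.08, -0.05 and -0.10, none of them called. Without WT_induced replicate 6 Cx3cr1 was at 0.05 and Csf1r at -0.02. Of 27 genes of disease-associated microglia, the state that depends on TREM2, 1 was lower, B2m. Apoe, which carries lipid and is induced in that state, was at 0.08 (SE 0.06) and not called. In control mice it was called higher in R47H mice (0.26, edgeR adjusted p = 0.0126). Itgax was at -1.79 (SE 0.70, adjusted p = 0.144), a value that became -0.03 without WT_induced replicate 6. None of 16 genes of TREM2 signalling was called. Their median went from -0.17 to 0.01 without WT_induced replicate 6. The adaptor Tyrobp was at -0.17 (SE 0.16) with all libraries. Its level was 12.1 CPM in WT_induced replicate 6 and at most 6.12 CPM in the other WT libraries. Of 24 pan-microglial and myeloid genes 23 had negative values (median -0.34) and 1, Ly86, was called. Without WT_induced replicate 6 the median was -0.04 and Ly86 was not called (edgeR adjusted p = 0.0947). The call on Ly86 was also lost without WT replicate 2 or 5, or R47H replicate 1, 3, 4, 5 or 6. Of 25 complement genes 2 were lower, C1ra and C2. Neither call held without WT_induced replicate 6, or without R47H replicate 1, 2, 3, 4 or 6. Other gene models overlap 46.9% of the exon bases of C2. None of 23 inflammatory cytokine and NF-kB genes was called, and 3 of 23 reactive astrocyte genes were, all of them interferon-induced (Iigp1, Gbp2 and Psmb8). Gfap was at 267 CPM in WT_induced replicate 6 and at 96.2 to 153 CPM in the other 11 libraries. Its log2 change was -0.03, and 0.27 without that library (edgeR adjusted p = 0.0543). In control mice it was 0.51, where the groups did not overlap but Gfap was not called (edgeR adjusted p = 0.107).

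**Figure D5:**
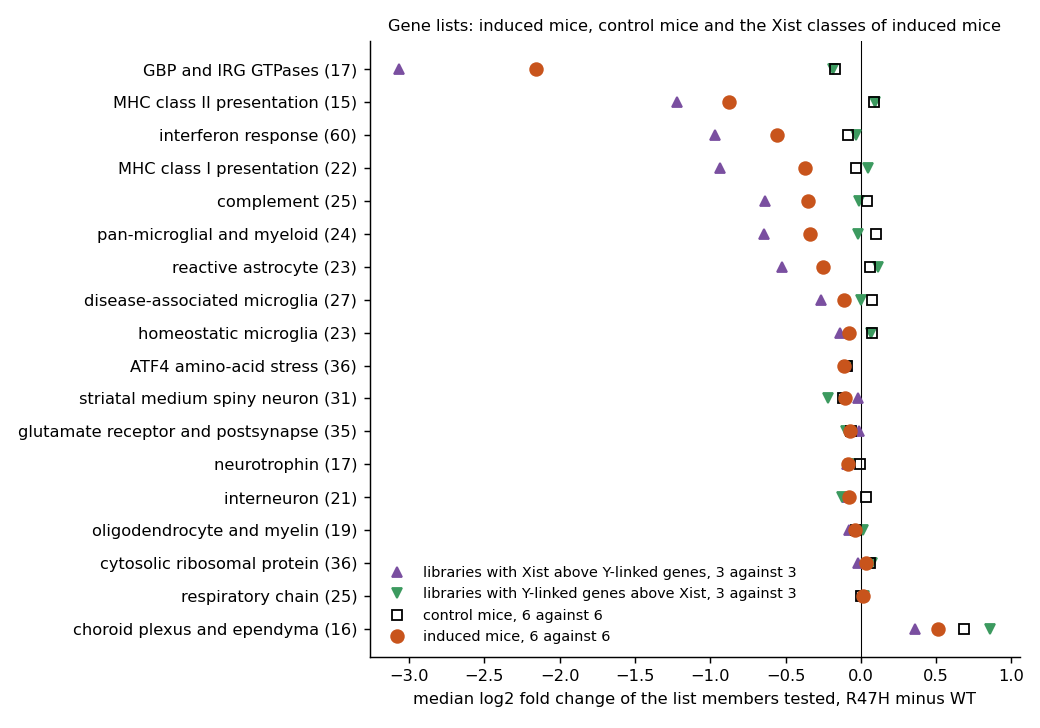
Median log2 fold change, R47H minus WT, of the tested members of 18 gene lists (number of members in brackets), for induced mice, for control mice and within the 2 Xist classes of induced mice. The GBP and IRG list has the lowest median at -2.15, near 0 in control mice and in the class with Y-linked genes above Xist; the neuronal and stress lists have smaller medians that differ less between induced and control mice.

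Falls in the ATF4 pathway were smaller and were also seen in control mice. Of 36 tested genes of this pathway, which raises amino-acid supply when protein synthesis is stressed, 10 were lower and none higher (median -0.11), against 3.22% of all genes lower. Chac1, an enzyme that degrades glutathione, was at 8.32, 6.32, 7.61, 7.44, 6.45 and 5.52 CPM in WT and at 3.81, 4.79, 4.91, 5.17, 4.35 and 4.29 CPM in R47H libraries. The groups did not overlap, and the log2 change was -0.60 (SE 0.09, adjusted p = 7.48e-05), with -0.59 in control mice. Mthfd2, of mitochondrial one-carbon metabolism, was at 6.12 to 8.17 CPM in WT and 3.78 to 4.95 CPM in R47H libraries (log2 -0.58, SE 0.09). The amino-acid transporters Slc7a3 and Slc7a1 were lower by log2 values of -0.51 and -0.21, asparagine synthetase (Asns) by -0.17, and the glycyl-tRNA synthetase Gars by -0.15. Atf4 itself, named for its role after its value was seen, was at 86.4 ± 5.18 CPM in WT and 75.9 ± 2.89 CPM in R47H mice (SD, n = 6 each; log2 -0.19, SE 0.05). Of the 36 members 8 were lower in control mice. With library totals alone 5 were lower and 1 higher, and 5 were lower with the striatal list mean as a covariate and within the Xist class (8 in the Y-linked class). The summed level of the striatal list itself separated the groups, so that covariate can remove genotype differences of any source. Gars lies between 50 and 60 Mb of chromosome 6, a window rich in calls. None of 28 heat shock and ER chaperone genes was called, although 24 of them had negative values. Their median was -0.10 in induced and -0.03 in control mice.

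The Chac1 promoter (chr2:119350992-119351291, plus strand) is shown because it holds the ATF4 composite motif TGATGNAA, in capitals. The motif, searched on both strands, was in 3 of 7 matched promoters of lower ATF4 genes, 6 of 23 matched promoters of the members that were not lower, and 2.81% of the promoters of tested genes.
Chac1: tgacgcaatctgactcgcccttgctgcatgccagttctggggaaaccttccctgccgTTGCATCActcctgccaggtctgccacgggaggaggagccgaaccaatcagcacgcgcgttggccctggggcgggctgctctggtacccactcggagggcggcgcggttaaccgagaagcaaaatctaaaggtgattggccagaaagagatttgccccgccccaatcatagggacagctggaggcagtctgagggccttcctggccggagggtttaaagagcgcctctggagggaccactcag

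Of 17 neurotrophin genes 4 were lower and none higher (median -0.09), Bdnf and Vgf among them. Over all tested genes 3.22% were lower. Bdnf, the brain-derived neurotrophic factor, was at 20.3, 24.1, 19.99, 22.7, 24.2 and 27.2 CPM in WT and at 18.6, 16.98, 16.7, 15.4, 16.2 and 17.02 CPM in R47H libraries. Every R47H value was below every WT value, and the log2 change was -0.46 (SE 0.09, adjusted p = 0.00142), the same as in control mice (-0.46). Vgf, a neuropeptide precursor, was at 157 to 197 CPM in WT and 132 to 144 CPM in R47H libraries (log2 -0.38, SE 0.06). The receptor Ntrk3 was at -0.21 and the GDNF co-receptor Gfra1 at -0.24, while the 7 tested ligands had a median of 0.08. Of 16 dense-core granule genes 3 were lower (Vgf, Scg2 and Scg3) and 1, Scg5, was higher (median -0.04). Of 37 immediate early and activity-regulated genes 5 were lower, Bdnf, Vgf, Inhba, Ptgs2 and Scg2, all of them secreted products or an enzyme of prostaglandin synthesis; the transcription factor Jun was higher (0.30, SE 0.07). Without WT_induced replicate 6 the call on Ptgs2 was lost (edgeR adjusted p = 0.0603). It was also lost without WT replicate 4, or R47H replicate 3, 4 or 5.

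Of 31 genes of striatal medium spiny neurons, a cell type of the region beneath the cortex, 7 were lower, against 3.22% of all genes. Of the 31 members none was higher, the median was -0.11, and 9 were lower in control mice. Within the Xist class 0 were lower (median -0.02) and within the Y-linked class 14 were (median -0.22), a difference between classes that passed for no gene. Of all 19678 tested genes 559 were lower within the Xist class and 465 within the Y-linked class. With library totals alone 4 were lower, and without R47H replicate 2, 11 were. Penk, the enkephalin precursor, was at 242, 245, 248, 242, 237 and 238 CPM in WT and 188, 217, 228, 194, 174 and 189 CPM in R47H libraries (log2 -0.29, SE 0.05, adjusted p = 0.000917). The WT values lay within a few CPM of each other and all exceeded the R47H values. Pde10a, a phosphodiesterase of these neurons, was at 305 to 346 CPM and 265 to 293 CPM (log2 -0.24, SE 0.04); it lies between 0 and 10 Mb of chromosome 17. Pdyn, Drd2 and Scn4b were lower by log2 values of -0.26, -0.22 and -0.29. The summed level of the list was 4375 to 4649 CPM in WT and 3943 to 4320 CPM in R47H libraries. With the list's mean as a covariate 523 genes in all were called in edgeR. Because the summed level of the list did not overlap between the groups, this covariate can remove genotype differences of any source in other genes too. Of the list's own members 0 were lower and 1 was higher. That count says nothing about them, because the covariate is their own mean and removes what they share. Whether the amount of striatum in the dissection differed was not tested.

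Other neuronal groups had a few members called, against 3.22% of all tested genes lower and 2.59% higher. Of 35 glutamate receptor and postsynaptic genes 5 were lower: the NMDA receptor subunit Grin2b (log2 -0.23), the metabotropic receptor Grm4 (-0.21), the scaffolds Homer2 (-0.25) and Shank2 (-0.21), and the calmodulin-binding Nrgn (-0.17). The count was 2 with library totals alone, 1 with the striatal list mean as a covariate, 2 within the Xist class and 13 within the Y-linked class. Of 21 interneuron genes 5 were lower, among them the peptides Cort, at 1.98 to 3.10 CPM in WT and 1.12 to 1.77 CPM in R47H libraries (log2 -0.73, SE 0.14), Npy (-0.28) and Crh (-0.42, adjusted p = 0.0567 without WT_induced replicate 6). The call on Crh was also lost without WT replicate 3 or 4, or R47H replicate 5 or 6. The interneuron count was 0 with the striatal covariate, 1 within the Xist class, 3 within the Y-linked class, and 3 without WT replicate 3 or 4 or R47H replicate 5 or 6. The counts with the striatal covariate do not show what part striatal content had, because the summed level of that list itself separated the groups. Of 28 potassium and sodium channel genes 4 were lower, with Kcnk2 at 59.9 to 63.9 CPM in WT and 44.5 to 54.0 CPM in R47H libraries, and 1, Kcnip2, was higher (0.15). Of 30 genes of excitatory cortical layers 2 were lower, Lamp5 and Pcp4, and Neurod2, a transcription factor of excitatory neurons, was higher (0.24). Another gene overlaps 23.7% of the exon bases of Pcp4. None of 14 GABA-A receptor subunits was called.

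Genes of other cell types and states gave 0 to 3 calls a list, against 5.8% of all tested genes called. Sgk1, a kinase induced by glucocorticoids, was at 49.6 to 64.6 CPM in WT and 65.1 to 97.8 CPM in R47H libraries (log2 0.44, SE 0.11, adjusted p = 0.0202; 0.02 in control mice), and Arrdc2 of the same list was also higher (0.44) and Map3k6 lower (-0.95). Rgs5, a pericyte regulator of G-protein signalling, was at 71.2 to 87.8 CPM in WT and 56.8 to 68.7 CPM in R47H libraries (log2 -0.40, SE 0.07). Ly6a, a membrane protein of endothelium that interferon induces, was lower (-0.85, SE 0.19, and -0.67 without WT_induced replicate 6). The ribosomal protein genes Rpl10 (0.18) and Rps2 (0.27) and the respiratory chain genes Cox8a (0.15) and Ndufb9 (0.09) were higher, with no other of 36 and 25 members called. Trf, the transferrin gene of oligodendrocytes, and Grn, the lysosomal progranulin, were lower (-0.26 and -0.25). Another gene model overlaps 63.5% of the exon bases of Trf, so part of its reads may not be assigned to it with certainty. Without WT_induced replicate 6 the calls on Rps2, Ndufb9 and Trf were lost (edgeR adjusted p = 0.0762, 0.0791 and 0.0874), and Grn was at -0.16. Each of the calls on Rps2, Ndufb9 and Trf was also lost without several other single libraries, R47H replicate 4 among them. None of 19 circadian, 18 astrocyte, 12 oligodendrocyte precursor or 13 border-associated macrophage genes was called. The choroid plexus list had 15 of 16 positive values and a median of 0.51, but 0 calls in edgeR; its summed level ran from 229 to 583 CPM in WT and 219 to 1169 CPM in R47H libraries.

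Herc6 and Ifnar1, the 2 interferon list members that were higher, went against the rest of their list. Ifnar1, a chain of the type I interferon receptor, was at 37.5 to 41.9 CPM in WT and 42.1 to 48.2 CPM in R47H libraries (log2 0.23, SE 0.04) and was also called in control mice (0.18). Herc6, a ligase for ISG15, was at 4.74 to 5.62 CPM in WT replicates 1 to 5, 11.5 in WT_induced replicate 6, and 9.07 to 17.5 CPM in R47H libraries (log2 0.94, SE 0.21; 0.74 in control mice). It lies between 50 and 60 Mb of chromosome 6, the window with 24.6% of its genes called.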

How the data were processed

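Poly-A RNA of mouse cortex was sequenced from unstranded TruSeq libraries, per the labels' protocols. The deposited values are raw counts per gene, made with STAR 2.5.2b and featureCounts 1.5.1 on mm10, per the submitters' processing notes; neither the annotation release nor the counting options is stated in the sources used here. All 37 mitochondrial genes were at 0. Total counts of the 12 induced libraries ran from 27933505 to 56082520, and rare genes are limited by counting error.

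Groups came from the labels, and each library is 1 mouse. Replicate numbers follow the accession order and pair nothing. No batch is labelled. Replicates differed beyond sampling noise (chi-square over degrees of freedom 4.31 to 60.9 over 15 pairs in each group), so none was counted as a repeat.

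Counts were filtered with filterByExpr, scaled by TMM and fitted in edgeR 4.0.16 (R 4.3.3, robust quasi-likelihood) over all 24 libraries with 4 group means; p-values were adjusted by Benjamini-Hochberg over 19678 genes. The SE is the absolute log2 change divided by the square root of F. DESeq2 1.42.0, limma-voom (limma 3.58.1), other filters, scalings and covariates, and each library left out were alternatives. On simulated counts the test called 44% of genes changed 1.2-fold, 70% of those changed 1.5-fold and 84% of those changed 2-fold in this comparison (19543 genes).

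Named genes were Trem2 and a microglial and neuronal panel, the 12 genes with the lowest p, the 10 largest rises and 10 largest falls at a mean of at least 1 CPM, and up to 6 called members of each list. The members and lists were chosen with earlier results of these data known. Promoters came from RefSeq (12540 of 19635 tested symbols matched). Exon overlap was read from GENCODE vM21, which held 98.8% of the tested gene identifiers.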

Additional observations from a re-analysis of the deposited data

Results flagged for a closer look

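In groups of 6 libraries a value is listed here when its gap to the nearest other library exceeded Dixon's critical share of the group's range for 6 values. This held in 46 of 218 groups (21.1%). The rule was applied to the named genes only. Most of them were picked by their values in these same libraries, so no chance rate is set beside this share. In 28 of the 46 the library was WT_induced replicate 6 and its value was the highest. Some of these genes were called only with that library, so this count is partly set by how the genes were chosen.

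In WT_induced replicate 6 the MHC genes B2m (263.1 CPM), H2-K1 (163.1), H2-Q4 (33.0), H2-Q6 (24.3), H2-Q7 (19.1), Nlrc5 (12.8), Psmb8 (16.6), Cd74 (151.5) and Ifi30 (6.59) stood above the other WT libraries. So did the interferon-induced genes Gbp2 (43.1 CPM), Gbp6 (21.4), Gm4951 (6.57), Herc6 (11.5), Iigp1 (30.6), Irf7 (12.4), Parp14 (17.4) and Slfn2 (6.52). The same held for the microglial and myeloid genes Aif1 (6.34 CPM), Csf1r (103.4), Itgax (2.96), Ly86 (7.91), Tmem119 (24.1), Trem2 (9.32) and Tyrobp (12.1), and for C1ra (5.06), C2 (6.59), Gfap (266.8) and Grn (53.6). Grm4 was low in this library, at 38.7 CPM.

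In the other WT libraries, Asns was high (92.1 CPM) and Gm16432 low (2.70) in replicate 1, Ankrd45 was low in replicate 4 (55.5), and Scn4b was low in replicate 5 (273.9).

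Among R47H libraries, replicate 2 stood apart 5 times, with Gfra1 (30.2 CPM), Hmga1 (9.84) and Wdfy1 (14.3) low and Mut (41.7) and Prss41 (1.53) high. In R47H replicate 5, H2-K1 (17.9 CPM), H2-Q6 (0.544) and Lct (2.67) were high and Slco2b1 was low (11.97). In R47H replicate 1, Cox8a was low (181.3 CPM) and Irf7 high (1.53). Tmem119 was high in R47H replicate 4 (17.6 CPM) and Mthfd2 low in R47H replicate 6 (3.78).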

How the results depend on the processing

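The count of called genes stayed within 1.5 times of 1142 except with the striatal list mean as a covariate, which gave 523 calls (263 higher, 260 lower), and at an adjusted p below 0.1, which gave 1853 (859 higher, 994 lower). Library totals without a scaling factor left the higher calls at 507 and gave 288 lower. DESeq2 called 1507 genes and limma-voom 1095. Leaving out 1 library at a time gave 875 to 1058 calls, 396 to 507 higher and 473 to 629 lower, and a Trem2 log2 change of -0.05 to 0.13. Within the libraries with Y-linked genes above Xist, 338 genes were higher, and the direction of Cd74 (0.32), Gbp2 (0.24) and Gbp6 (0.36) turned, at adjusted p of 0.901, 0.872 and 0.864; the cause was not tested. This class split was chosen after seeing the data. Of 26 alternatives, 16 lost each of the calls on C2, Gbp6, Ndufb9, Psmb8 and Wdfy1, while the calls on Hmga1, Nudt3, Chac1, Bdnf and Vgf were lost in 0. No paired analysis was possible because the labels give each mouse its own number and the replicate numbers follow the accession order.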
